A study of Mus musculus with 8 samples.

Results

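The transcripts of 9 secreted factors were followed here in resting mast cells: the type 2 cytokines Il13 and Il4, the interleukin-6 family members Il6, Lif and Osm, the caspase-linked interleukins Il1b and Il16, and the growth factors Tgfb1 and Csf1. They were taken by name from the 56748 gene IDs of the count tables, and all 9 were among the 14942 genes that passed the filter on low counts. The cells were bone marrow-derived mast cells (BMMCs), obtained by culturing marrow of C57BL/6 mice aged 6 to 8 weeks with IL-3 for at least 4 weeks. Cells of 4 mice gave 4 libraries of the Mettl3-RNP group, electroporated with Cas9 ribonucleoproteins (RNPs) carrying guide RNAs against Mettl3, and 4 of the Pulsed group, a mock transfection without Cas9, and libraries of the 2 groups with the same number were taken as a pair. Mettl3 protein depletion had been checked by intracellular staining, and no sort of edited cells is described. The study states that some untargeted cells remained, so the Mettl3-RNP cells are a pool in which some keep Mettl3. Both groups were unstimulated.

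Mast cells store mediators in granules and make cytokines anew when their receptors are engaged. IL-4 and IL-13 drive type 2 immunity and share the receptor chain IL-4Rα, while IL-6, LIF and oncostatin M signal through the common chain gp130. IL-1β and IL-16 are made as precursors that caspases can cleave, TGF-β1 is secreted in a latent form, and CSF1 sustains macrophages. Mettl3 is the catalytic subunit of the complex that places N6-methyladenosine (m6A) on mRNA, a mark linked to transcript decay, and many cytokine mRNAs are short-lived. The comparison therefore asks whether steady-state levels of these transcripts differ at rest between Mettl3-RNP and Pulsed cells. Because Pulsed cells received no Cas9, loss of Mettl3 cannot be told apart here from exposure to Cas9 RNPs and DNA cutting. Methylation and decay were not measured in these libraries.

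The libraries held 32643260 to 45324826 counts. Mettl3 itself was at 8.89 ± 3.05 CPM (counts per 1000000 counts of a library; SD, n = 4) in Mettl3-RNP and 22.02 ± 7.29 CPM (SD, n = 4) in Pulsed libraries, and was lower in 4 of 4 pairs. Summed mast cell markers (17 genes, among them Cpa3, Kit and Fcer1a) were at 58256 to 74924 CPM in Mettl3-RNP and 62229 to 81303 CPM in Pulsed libraries. The neutrophil list summed to at most 0.497 CPM with 5 of its 12 genes at 0, and the eosinophil list (3 of 9 genes at 0) to 3.18 to 13.6 CPM. The 15 macrophage and monocyte genes summed to 159 to 412 CPM in Mettl3-RNP and 78.5 to 401 CPM in Pulsed libraries, most of it Cx3cr1, while Csf1r stayed at 18 counts or fewer per library. T cell and innate lymphoid markers (5 of 14 genes at 0) summed to 43.1 to 89.1 CPM and B cell markers (1 of 6 genes at 0) to 1.54 to 21.2 CPM. Summed basophil genes (8, none at 0) were at 1802 to 2426 CPM in Mettl3-RNP and 2263 to 3325 CPM in Pulsed libraries, most of it Ifitm1. The summed mast cell, basophil and eosinophil lists were each lower in Mettl3-RNP in 4 of 4 pairs. Cpa3 was the largest part of the mast cell sum, at means of 23272 CPM in Mettl3-RNP and 30425 CPM in Pulsed libraries. Of the 16 tested mast cell markers, 9 had fitted log2 fold changes above 0 and 7 below, with a median of 0.05. Il1rl1, Mitf and Ndst2 were higher in 4 of 4 pairs, and Cpa3, Fcer1g and Slc18a2 lower in 4 of 4. The lower sum therefore does not stand for the list as a whole. Of the 38 markers tested, 6 (15.8%) fell and 0 rose at an adjusted p of 0.05 or less in edgeR, where 3.74% of all genes were called: Ifitm1, Il18rap and Grm6 of the basophil list, Siglecf, Adgre1 and the mast cell protease gene Cpa3 (log2 fold change -0.37). The other tested basophil genes were not called, with log2 fold changes of -0.42 for Mcpt8 (19 to 147 counts per library; adjusted p = 0.267), -0.68 for Prss34 and -0.85 for Itga2, all lower in 4 of 4 pairs, and 0.25 for Cd200r3, higher in 4 of 4 pairs. In the macrophage and monocyte list 3 of 6 tested genes had fitted values above 0, with Cd68 at 1.63 (higher in 3 of 4 pairs, edgeR adjusted p = 0.142). In the eosinophil list Il5ra was at 0.41, higher in 4 of 4 pairs (edgeR adjusted p = 0.173). Ccr3 of that list was at -0.59 and lower in 4 of 4 pairs, and was not called. The part of cells other than mast cells in the results below was not tested. In such bulk RNA, fewer cells making a transcript and less of it per cell cannot be told apart.

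None of the 9 cytokine transcripts differed between Mettl3-RNP and Pulsed cells at an adjusted p of 0.05 or less by the quasi-likelihood test of edgeR with the pair as a block, a threshold passed by 3.74% of all genes tested. By unadjusted p under 0.05 there were 3 of 9, Il16 and Csf1 with higher and Lif with lower fitted levels, where 22.5% of all genes did the same. DESeq2 called 1 of the 9, Lif, beside 11.7% of the 12334 genes to which it gave an adjusted p, and limma-voom called 0, beside 4.3% of all genes. No member was higher or lower in 4 of 4 pairs, a pattern that 15.7% of all genes showed upwards and 16% downwards. The median fitted log2 fold change of the 9 was 0.11, beside 0.00 over all genes tested (-0.0013). For each of the 9, more of the variance lay between replicate numbers than between groups.

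**Figure D1:**
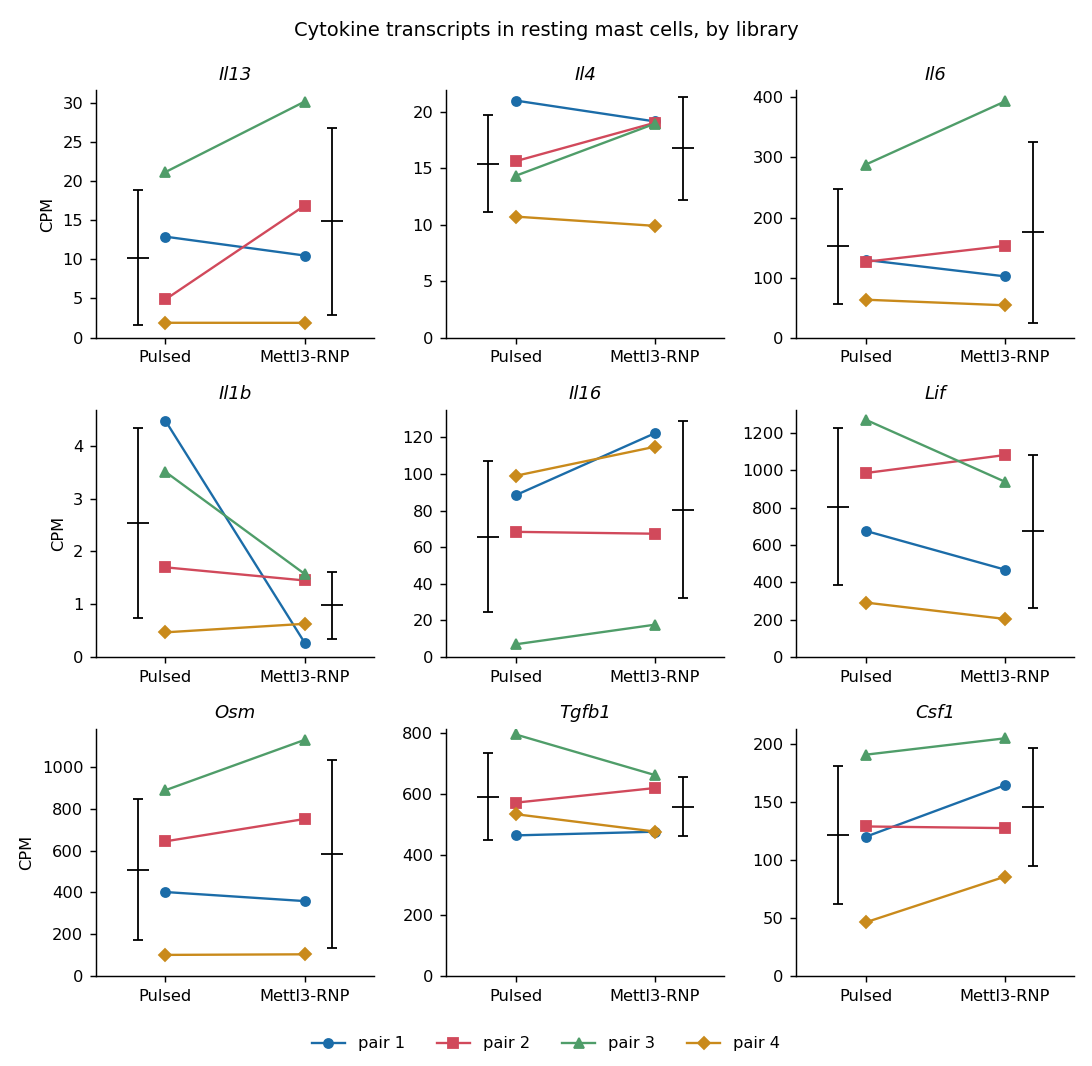
Each panel plots 1 transcript in CPM (counts per 1000000, linear axis from 0), with lines joining the Pulsed and Mettl3-RNP libraries of a pair and black bars giving the mean ± SD of 4 libraries. The groups overlap in all 9 panels, and pair 4 is the lowest of the Pulsed libraries for Il13, Il4, Il6, Il1b, Lif, Osm and Csf1.

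The signature type 2 cytokine of mast cells, Il13, was read from 66 to 903 counts per library and varied widely. It had 390, 723, 903 and 66 counts in Mettl3-RNP libraries 1 to 4 and 459, 187, 852 and 69 in Pulsed libraries 1 to 4. Pair 4 was low and pair 3 high in both groups, so that the groups overlapped throughout. In Pulsed cells the highest library exceeded the lowest by 11.2-fold in CPM, and in Mettl3-RNP cells by 16.1-fold. The Mettl3-RNP library was higher in pairs 2 and 3, by 3.43-fold and 1.42-fold, and lower in pairs 1 and 4, at ratios of 0.814 and 0.996. The fitted log2 fold change was 0.53 ± 0.309 (SE; 95% interval -0.19 to 1.24; edgeR adjusted p = 0.364), and without pair 2 it was 0.08.

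Il4, the gene next to Il13 and the cytokine that switches B cells to IgE, was steadier. Its counts were 711, 814, 566 and 347 in Mettl3-RNP libraries 1 to 4 and 746, 598, 576 and 391 in Pulsed libraries 1 to 4. Library 4 was again the lowest of each group, and the highest Pulsed library exceeded the lowest by 1.96-fold. Levels were 16.7 ± 4.57 CPM in Mettl3-RNP and 15.4 ± 4.26 CPM in Pulsed cells (SD, n = 4). The fitted fold was 1.08 with a 95% interval from 0.892 to 1.31 (edgeR adjusted p = 0.645), 2 of 4 pairs being higher. Exons of Il4 share 179 bases with Kif3a on the opposite strand, whose log2 fold change was -0.16 (edgeR adjusted p = 0.426).

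Il6, an acute inflammatory cytokine, was well detected at rest. It measured 102, 153, 393 and 53.7 CPM in Mettl3-RNP libraries 1 to 4 and 129, 126, 288 and 63.0 CPM in Pulsed libraries 1 to 4. Library 3 was the highest and library 4 the lowest of both groups. Mettl3-RNP was higher in pairs 2 and 3 and lower in pairs 1 and 4. The fitted fold was 1.03 (95% interval of the log2 fold change -0.27 to 0.35; edgeR adjusted p = 0.893), and its direction turned when pair 2 or pair 3 was left out (log2 fold change -0.05 and -0.10).

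Lif, named for its effect on leukaemia cells and a gp130 ligand, was the member with the lowest p. It measured 468, 1082, 939 and 203 CPM in Mettl3-RNP libraries 1 to 4 and 675, 985, 1271 and 291 CPM in Pulsed libraries 1 to 4. Mettl3-RNP cells had less Lif in pairs 1, 3 and 4, at ratios of 0.693, 0.739 and 0.699, and slightly more in pair 2, at 1.10. The ranges of the groups still overlapped, since pairs differed more than groups. The log2 fold change was -0.34 ± 0.117 (SE; 95% interval -0.61 to -0.07; unadjusted p = 0.0209, adjusted p = 0.139 in edgeR). DESeq2 gave an adjusted p of 0.0382 and limma on values with the replicate number removed 0.0276, so that the call for Lif depended on the test. The latter setting does not charge the block to the degrees of freedom and called 30.5% of all genes.

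Osm, which encodes oncostatin M and lies 16530 bases from Lif on chromosome 11, did not share that direction. It measured 359, 750.5, 1128 and 105 CPM in Mettl3-RNP libraries 1 to 4 and 402, 644, 888 and 102 CPM in Pulsed libraries 1 to 4. The order of the libraries was the same in both groups, with library 3 at the top and library 4 at the bottom. Mettl3-RNP was higher in 3 of 4 pairs, by 1.03-fold to 1.27-fold, and lower in pair 1. The fitted fold was 1.08 (95% interval 0.93 to 1.25; edgeR adjusted p = 0.544).

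Il1b, the inflammasome-dependent pyrogen, was near the limit of counting. It had 10, 62, 47 and 22 counts in Mettl3-RNP libraries 1 to 4 and 159, 65, 141 and 17 in Pulsed libraries 1 to 4. Libraries 1 and 3 of the Pulsed group stood high, while the other 2 Pulsed libraries lay within or near the Mettl3-RNP range. Mettl3-RNP was lower in 3 of 4 pairs, and the ratio in pair 1 was 0.0714. The log2 fold change was -1.16 ± 0.643 (SE; 95% interval -2.65 to 0.32; edgeR adjusted p = 0.336), and without pair 1 it was -0.41. The replicate number held 35.2% of the variance of its log2 CPM, the lowest share of the 9. Per length it stayed between 0.454 and 7.22 TPM (transcripts per 1000000), beside a mean of at most 0.170 TPM over 1546 olfactory and vomeronasal receptor genes, which mast cells should not use.

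On the opposite strand, 95 bases of Il1b exon are shared with the long non-coding RNA Il1bos, a gene named here after its values had been seen. Il1bos had 79, 66, 35 and 42 counts in Mettl3-RNP libraries 1 to 4 and 278, 149, 176 and 79 in Pulsed libraries 1 to 4. It fell in 4 of 4 pairs, with a log2 fold change of -1.50 ± 0.224 (SE; edgeR adjusted p = 0.0197), and was not called without pair 2 (adjusted p = 0.0847). Whether reads were counted by strand is not stated, so reads in the shared bases could belong to either gene.

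Il16, a chemoattractant for CD4-bearing cells made as a large precursor, ran against the other cytokines. It measured 122, 67.3, 17.6 and 115 CPM in Mettl3-RNP libraries 1 to 4 and 88.4, 68.4, 6.89 and 98.97 CPM in Pulsed libraries 1 to 4. Library 3, the highest for Il6, Osm and Csf1 in both groups, was here the lowest. Mettl3-RNP was higher in pairs 1, 3 and 4, by 1.38-fold, 2.54-fold and 1.16-fold, and at 0.985 of Pulsed in pair 2. The log2 fold change was 0.46 ± 0.189 (SE; 95% interval 0.02 to 0.89; edgeR adjusted p = 0.204) and 0.22 without pair 3. Il16 shares 1394 exon bases with Stard5 on the opposite strand, which had a similar fitted value (log2 fold change 0.44, edgeR adjusted p = 0.169) at 1.94 to 8.64 CPM.

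Tgfb1, which restrains immune cells and shapes mast cell proteases, was the most even transcript. It measured 475, 619, 662 and 476 CPM in Mettl3-RNP libraries 1 to 4 and 463, 571, 795 and 533 CPM in Pulsed libraries 1 to 4. No library stood far from the others, the highest exceeding the lowest by 1.72-fold in Pulsed and 1.39-fold in Mettl3-RNP cells. The fitted fold was 0.954 with a 95% interval from 0.834 to 1.09 (edgeR adjusted p = 0.688), the narrowest interval of the 9.

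Csf1, the macrophage growth factor, measured 165, 128, 205 and 85.8 CPM in Mettl3-RNP libraries 1 to 4 and 120.2, 129, 191 and 46.5 CPM in Pulsed libraries 1 to 4. Mettl3-RNP was higher in 3 of 4 pairs, by 1.07-fold to 1.85-fold, and at 0.989 of Pulsed in pair 2. The log2 fold change was 0.35 ± 0.140 (SE; 95% interval 0.03 to 0.68; edgeR adjusted p = 0.189) and 0.19 without pair 4. With the signs of the 4 pair differences flipped in every way (exact permutation, two-sided) p was 0.25 for Csf1, Il16 and Lif and 0.375 to 0.875 for the other 6 members, the smallest p that 4 pairs allow being 2 of 16 sign assignments.

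**Figure D2:**
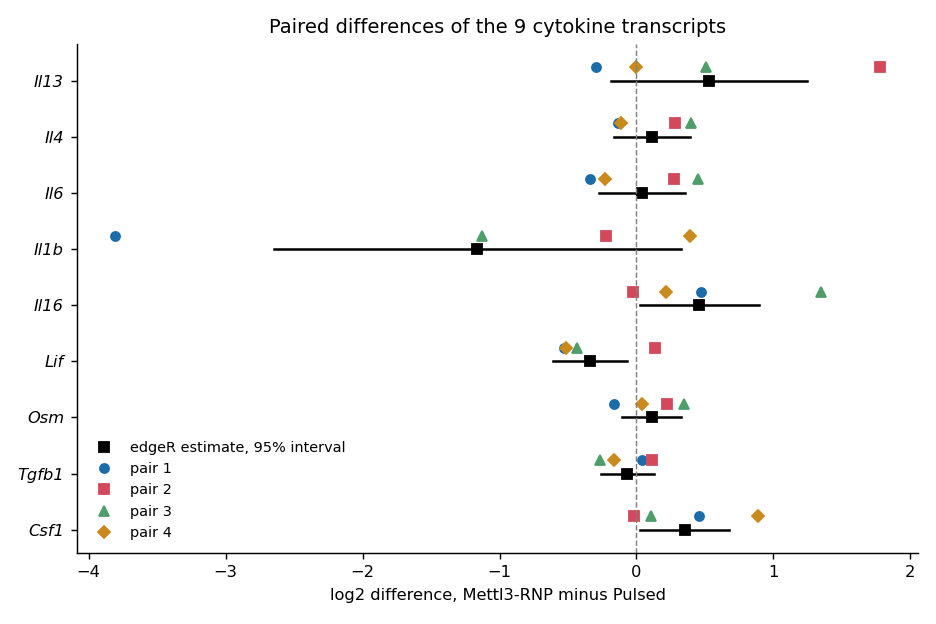
The log2 difference between Mettl3-RNP and Pulsed is plotted for each transcript, coloured symbols giving the 4 pairs and black squares the edgeR estimate with its 95% interval. Il16, Lif and Csf1 have intervals that leave out 0, the widest interval is that of Il1b (-2.65 to 0.32), and every transcript has pairs on both sides of 0.

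The spread between cultures followed a common order for most members. The replicate number held 85.2% to 99.2% of the variance of log2 CPM for the 8 members other than Il1b, and the group 0.0423% to 7.53%. Over all genes tested the medians were 78.3% for the replicate number and 5.68% for the group. Among the Pulsed libraries alone, Il16 spanned 14.4-fold, Il13 11.2-fold, Il1b 9.61-fold, Osm 8.71-fold, Il6 4.57-fold, Lif 4.36-fold, Csf1 4.11-fold, Il4 1.96-fold and Tgfb1 1.72-fold, while the 11985 genes averaging 1 CPM or more had a median span of 1.75-fold and 9.92% of these spanned 4-fold or more. Mouse, culture and day of handling cannot be told apart within a replicate number.

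The same libraries differed in immediate early genes, the transcription factors and feedback regulators that cells induce within minutes of a stimulus. The median log2 CPM of 25 such genes was 8.21 in Pulsed and 8.29 in Mettl3-RNP library 3, 5.60 to 6.77 in Pulsed and 5.08 to 6.32 in Mettl3-RNP libraries 1 and 2, and 2.11 and 2.46 in libraries 4. None of the 24 tested immediate early genes differed between the groups at an adjusted p of 0.05 or less in edgeR (3.74% of all genes), and 5 had an unadjusted p under 0.05 (22.5% of all genes). Over the 8 libraries, which form 4 pairs and are not independent, this median had a Pearson r of 0.98 with Osm, 0.95 with Il6, 0.94 with Lif, 0.89 with Il13, 0.89 with Csf1, 0.72 with Tgfb1, 0.66 with Il4, 0.64 with Il1b and -0.76 with Il16. Its part in the cytokine levels was not tested.

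**Figure D3:**
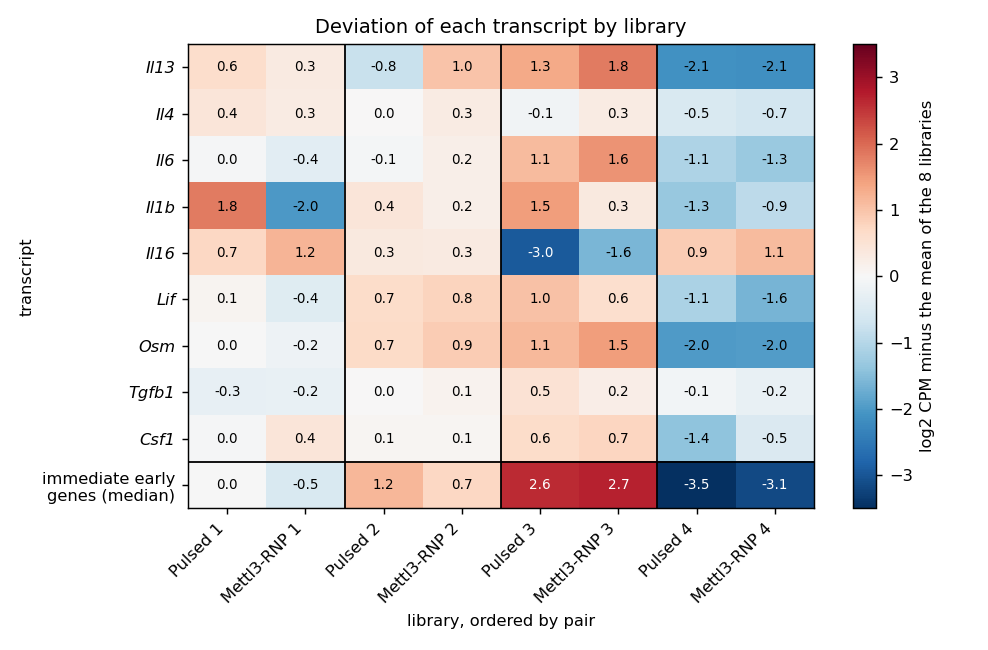
Colours and numbers give the log2 CPM of each transcript minus its mean over the 8 libraries, ordered by pair, with the median of 25 immediate early genes in the bottom row. Pair 3 is high and pair 4 low for Il13, Il6, Lif, Osm and Csf1 as for the immediate early genes, whereas Il16 is low in pair 3.

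The genes most alike in profile to each member were sought among 10729 other protein-coding genes of at least 1 CPM, by Pearson r over the same 8 libraries. With 8 points in 4 pairs such values are high for many genes, and they describe these libraries only. For Il13 they were Jun, Wtip and Siah1a (r from 0.97 to 0.99), for Osm Junb, Fosb and Btg2 (0.98 each), and for Csf1 Dtx3, Egr1 and Phf20l1 (0.95 to 0.97). Jun, Junb, Fosb, Btg2 and Egr1 belong to the immediate early list. For Lif they were the ribosomal protein genes Rps27 and Rps21 with Mfn1 (0.97 to 0.98), for Il6 Ramp3 and Mrpl4 (0.98 each), and for Il4 Mettl26, D5Ertd579e and Sbk1 (0.93 to 0.99). Il16 was nearest to Mtg2, Kifbp and Fbxl19 (0.997 each), Tgfb1 to Trim24, Szrd1 and Prmt6 (0.97 to 0.99), and Il1b to Cst3, 5031439G07Rik and Phactr1 (0.90 to 0.93).

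Because Il6, Lif and Osm moved together between cultures and with genes of the AP-1 family, the 250 bases before their annotated start sites are shown on the strand of the gene (GRCm39), with matches to the searched motifs in capitals.
Il6, chr5:30217862-30218111, plus strand: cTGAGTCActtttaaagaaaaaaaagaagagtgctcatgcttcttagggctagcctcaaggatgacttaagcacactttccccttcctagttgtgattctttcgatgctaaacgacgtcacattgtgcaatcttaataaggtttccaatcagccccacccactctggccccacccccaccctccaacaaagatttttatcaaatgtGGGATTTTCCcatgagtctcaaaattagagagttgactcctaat
Lif, chr11:4207307-4207556, plus strand: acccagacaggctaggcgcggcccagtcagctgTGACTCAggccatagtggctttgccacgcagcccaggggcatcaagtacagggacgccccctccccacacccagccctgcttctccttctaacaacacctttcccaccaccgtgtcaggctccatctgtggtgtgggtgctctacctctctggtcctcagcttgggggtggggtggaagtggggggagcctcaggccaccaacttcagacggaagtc
Osm, chr11:4186170-4186419, plus strand: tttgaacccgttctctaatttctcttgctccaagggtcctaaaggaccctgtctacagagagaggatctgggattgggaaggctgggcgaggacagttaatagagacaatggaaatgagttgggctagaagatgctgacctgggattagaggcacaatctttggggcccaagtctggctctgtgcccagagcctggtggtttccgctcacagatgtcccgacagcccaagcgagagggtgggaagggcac
The AP-1 motif, TGANTCA on either strand, was found 249 bases before the start of Il6, 217 before Lif and 34 before Il16, and in 6.17% of 21770 protein-coding promoters of this length. The NF-kappaB motif (either strand) lay 44 bases before Il6 and 133 before Csf1, and in 0.423% of promoters. The window of Osm held none of the 8 motifs searched, which says only that these letters are not in it. Letters that match a motif describe the sequence and are no evidence of binding.

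Levels of different genes were compared per exon length, in TPM. In Pulsed cells Osm led with 834 ± 498 TPM (SD, n = 4), followed by Lif (657 ± 299), Tgfb1 (442 ± 65.5), Il6 (233 ± 126), Csf1 (78.1 ± 33.2), Il4 (48.9 ± 16.2), Il13 (31.7 ± 25.2), Il16 (30.9 ± 20.1) and Il1b (3.76 ± 2.80). The order of the means was the same in Mettl3-RNP cells, where Osm stood at 999.95 ± 699 TPM and Il1b at 1.47 ± 0.885 TPM. Each neighbour in this order overlapped the next in range in both groups, except that Il16 lay wholly above Il1b in Mettl3-RNP cells. Within single libraries Osm exceeded Lif in 7 of 8, Il6 exceeded Csf1 in 8 of 8, and Il13 exceeded Il16 in 4 of 8. In both libraries of pair 4 Tgfb1 was the most abundant of the 9, at 426 TPM in Pulsed and 389 TPM in Mettl3-RNP, where Osm had 182 and 192 TPM. With the length of the longest transcript in place of all exons, Tgfb1 led in Pulsed cells (672 TPM) and 4 of 9 genes kept their place.

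**Figure D4:**
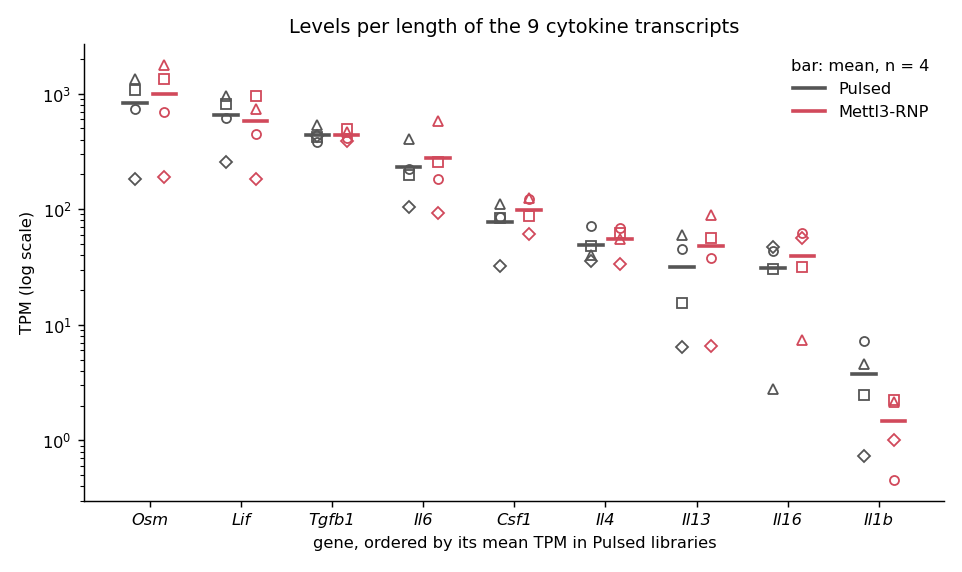
TPM (transcripts per 1000000, log axis) is plotted for each gene in the 4 Pulsed (grey) and 4 Mettl3-RNP (red) libraries, circles, squares, triangles and diamonds being pairs 1 to 4 and bars the means. Osm, Lif and Tgfb1 head the order in both groups, Il1b ends it, and Osm spans 182 to 1339 TPM in Pulsed cells while Tgfb1 spans 383 to 536.

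The 3′ untranslated region (3′UTR) of each canonical transcript was read on the transcribed strand. The letters sought were GGACT, a form of the consensus in which m6A is placed, and TATTTAT and the shorter ATTTA, motifs of AU-rich elements. GGACT occurred in 7 of the 9 members and in neither Il4 nor Il6. Other forms of the consensus were not searched, so a 3′UTR without GGACT may still hold one. Lif held 7 matches in 3180 bases, a number reached by 3.73% of 3′UTRs at least that long when these were cut to the same length. Csf1 held 3, Il1b and Osm 2, and Il13, Il16 and Tgfb1 1, numbers reached by 10.2% (Il1b) to 63.2% (Il16) of 3′UTRs handled in the same way. The site nearest the coding end is printed for each, with the motif in capitals, to show where along the transcript this form of the consensus lies.
Lif, chr11:4219348-4219372, plus strand: aatgtaccatGGACTgagggacctc
Csf1, chr3:107650436-107650460, minus strand: tgggcacacaGGACTatctctttat
Il1b, chr2:129206924-129206948, minus strand: agtatgggctGGACTgtttctaatg
Il13, chr11:53522844-53522868, minus strand: tctcagctgtGGACTcattttcctt
Osm, chr11:4190152-4190176, plus strand: ctaccactcaGGACTtcaaggatag
Il16, chr7:83292763-83292787, minus strand: aatcccctagGGACTatgaaagcca
Tgfb1, chr7:25404490-25404505, plus strand: aggtgacagaGGACTg
These began 24 bases into the 3′UTR of Lif, 25 into that of Csf1, 11 into that of Il1b, 34 into that of Il13, 153 into that of Osm, 320 into that of Il16 and 133 into that of Tgfb1. The members with GGACT had fitted log2 fold changes from -1.16 to 0.53 and those without it 0.04 and 0.11, none of them called.

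TATTTAT was absent from Tgfb1 and Il16, and occurred 5 times in Lif, 3 times in Osm and Il1b, 2 times in Il4 and 1 time in Il13, Il6 and Csf1. As many matches or more were found in 0.17% of same-length 3′UTRs for Il4, 0.42% for Il1b, 1.16% for Lif and 1.34% for Osm, and in 10.4% to 41.2% for Il6, Il13 and Csf1. The shorter ATTTA was absent from Il16. It occurred 6 times in Il6, a number reached by 0.37% of same-length 3′UTRs. For Il4, Il1b and Osm (2, 4 and 6 matches) the shares were 1.59%, 2.85% and 4.93%. For Tgfb1, Il13, Lif and Csf1 (1, 3, 7 and 4 matches) they were 15.8% to 49.6%. The TATTTAT matches of Lif, Osm, Il1b and Il4 first met along the transcript are printed, these being the members that hold more than 1.
Lif, chr11:4220470-4220496, plus strand: cacagctgtcTATTTATtactatgtcc
Osm, chr11:4190586-4190612, plus strand: caagacacttTATTTATccgaatgtca
Il1b, chr2:129206729-129206755, minus strand: accacttaccTATTTATttatgtattt
Il4, chr11:53503323-53503349, minus strand: ttatttttaaTATTTATatatttataa

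Of the genes around these cytokines (147 in 6 lists, 91 of them tested), 4 rose and 2 fell at an adjusted p of 0.05 or less in edgeR, against 3.74% of all genes tested. The number was 2 without pair 1 and 1 without pair 2. Il1r2, a decoy receptor that binds IL-1 without signalling, measured 85.7, 66.6, 243 and 39.1 CPM in Mettl3-RNP libraries 1 to 4 and 158, 159, 418 and 94.0 CPM in Pulsed libraries 1 to 4. It fell in 4 of 4 pairs although the ranges overlapped, with a log2 fold change of -1.05 ± 0.100 (SE; edgeR adjusted p = 0.00615), and was called in all 4 fits that left out a pair. No other of the 14 tested receptor genes was called, and their median log2 fold change was 0.09. The most abundant, Il4ra, the chain through which IL-4 and IL-13 signal, had 0.31 (edgeR adjusted p = 0.0872), Tgfbr1 0.11, Cd9 -0.11 and Il2rg -0.15.

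Among 16 tested growth factors outside the 9, Gdf15 rose and Hgf fell in edgeR, where 3.74% of all genes were called. Gdf15, a stress-induced relative of TGF-β, measured 13.3, 26.5, 2.74 and 16.8 CPM in Mettl3-RNP libraries 1 to 4 and 8.33, 4.75, 1.52 and 3.31 CPM in Pulsed libraries 1 to 4. It was higher in 4 of 4 pairs with overlapping ranges. Its log2 fold change was 1.63 ± 0.326 (SE; edgeR adjusted p = 0.0374), and it was 1.29 without pair 2 and then not called (adjusted p = 0.15). Hgf, hepatocyte growth factor, was at 4.48 ± 1.64 CPM in Mettl3-RNP and 9.68 ± 3.70 CPM in Pulsed libraries (SD, n = 4), lower in 4 of 4 pairs (log2 fold change -1.11 ± 0.194, SE; edgeR adjusted p = 0.0292), and it was called in 1 of the 4 fits that left out a pair. The more abundant Angpt1 (-0.21), Flt3l (0.37), Vegfa (-0.20) and Vegfb (0.03) were not called, and the median of the list was 0.05.

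Of 20 tested transcription factors that act at the Il4 and Il13 locus, 2 rose and 0 fell in edgeR, where 3.74% of all genes were called. The fitted log2 fold change was above 0 for 19 of them, called or not, and for 49.8% of all genes, with a median of 0.25 beside 0.00 over all genes. Runx1 was at 823 ± 92.9 CPM in Mettl3-RNP and 647 ± 49.4 CPM in Pulsed libraries (SD, n = 4; log2 fold change 0.34, edgeR adjusted p = 0.0448), and Nfatc2, a calcium-activated factor, at 119 ± 34.2 and 87.3 ± 30.9 CPM (0.49, edgeR adjusted p = 0.0319). Both were higher in 4 of 4 pairs, and neither was called in any of the 4 fits that left out a pair. Egr1 (0.83), Jund (0.37), Gata2 (0.13) and Junb (0.11), the most abundant of the others, were not called.

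In the list of genes that respond to TGF-β, Ski, a co-repressor of Smad proteins, rose from 136 ± 14.9 CPM in Pulsed to 183 ± 19.6 CPM in Mettl3-RNP libraries (SD, n = 4; log2 fold change 0.43, edgeR adjusted p = 0.0324), and was called in 1 of the 4 fits that left out a pair. The other 16 tested genes were not called, Id2 (-0.01), Smurf1 (-0.06), Smad2 (0.18) and Smad4 (0.02) among them, and the median was 0.09. None of the 17 tested genes for processing and release was called in edgeR, where 3.74% of all genes were. The unadjusted p was under 0.05 for 8 of the 17, a larger share than the 22.5% of all genes. Furin, the protease that cleaves pro-TGF-β1, had a log2 fold change of 0.15, the latent TGF-β1 partner Nrros 0.27 and the inflammasome sensor Nlrp3 -0.29.

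The other interleukins were scarce. Only 7 of 30 passed the filter and none was called in edgeR (3.74% of all genes), 1 having an unadjusted p under 0.05 (22.5% of all genes). Their median log2 fold change was 0.68 at low counts, beside 0.00 over all genes. Il15 was at 12.3 CPM in Mettl3-RNP and 14.7 CPM in Pulsed libraries, followed by Ebi3 (4.59 and 2.31 CPM), Cntf (1.67 and 1.05 CPM) and Il7 (1.29 and 0.652 CPM). There were 7 genes with 0 counts in all 8 libraries, named after their values had been seen: Il9, Il10, Il12b, Il17a, Il22, Il24 and Il27. A count of 0 allows up to 3 counts in a library, or 0.0701 to 0.1003 CPM at these depths.

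**Figure D5:**
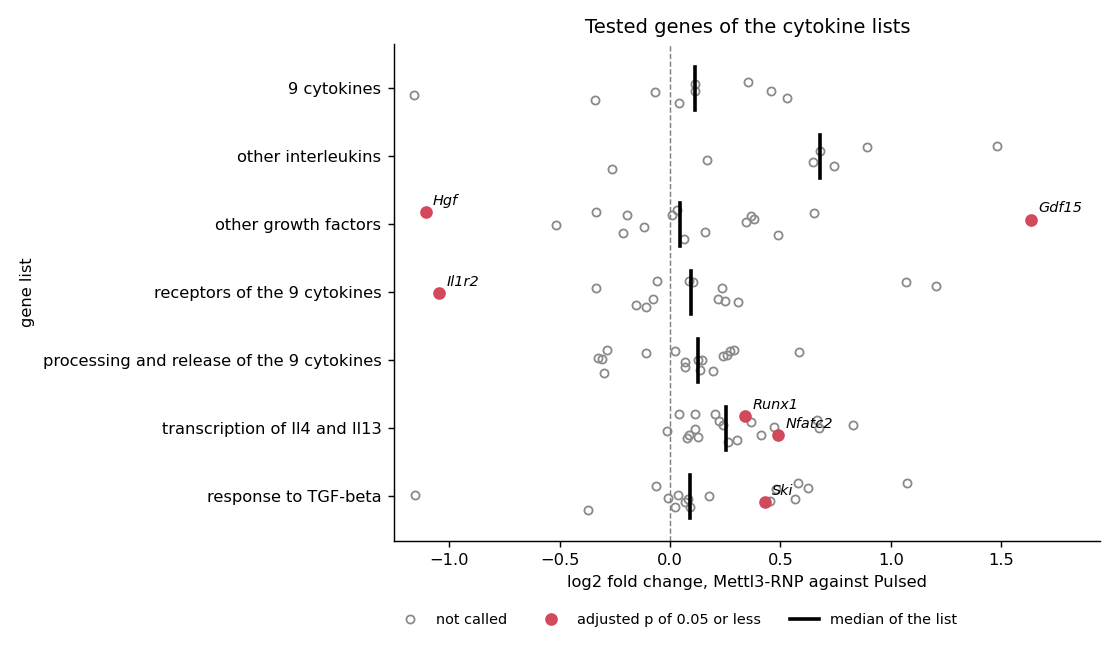
Each circle is the log2 fold change of 1 tested gene in edgeR, Mettl3-RNP against Pulsed, arranged by list, filled where the adjusted p was 0.05 or less, with a bar at the median of the list. The 9 cytokines hold no filled circle, and the filled ones are Hgf, Gdf15, Il1r2, Runx1, Nfatc2 and Ski.

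The members lie on 5 chromosomes, with Il13 (chr11:53522151-53525529) and Il4 (chr11:53493809-53509496) side by side 12654 bases apart on the minus strand, and Osm (chr11:4186420-4191026) and Lif (chr11:4207557-4222514) side by side on the plus strand (GRCm39). Outside the type 2 pair, Septin8, a cytoskeletal GTPase gene, rose from 44.6 ± 7.39 CPM in Pulsed to 67.5 ± 13.6 CPM in Mettl3-RNP libraries (SD, n = 4; log2 fold change 0.59, edgeR adjusted p = 0.0139; not called without pair 2, adjusted p = 0.0765), while Rad50 had -0.10 (edgeR adjusted p = 0.569). Beside Osm and Lif, Castor1 had a log2 fold change of 0.48 (edgeR adjusted p = 0.0912) and Hormad2 -1.26 (adjusted p = 0.154) at no more than 49 counts. Next to Il6, Dnajb6 (-0.09) and Tyms (-0.02) were not called. B9d2, which starts 5′ of Tgfb1 and ends 257 bases before it, had 0.31 (edgeR adjusted p = 0.0984) and Ccdc97 0.19. F830045P16Rik beside Il1b had 0.65 (adjusted p = 0.112) and Ahcyl1 beside Csf1 -0.10, and Il1a, Tmc3, Cfap161 and Eps8l3 had too few counts to be tested.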

How the data were processed

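Poly-A RNA of 8 BMMC cultures was sequenced in pairs of reads. The authors aligned reads with HISAT2 2.2.1 to GRCm39 (Ensembl 107) and counted them per gene with featureCounts 2.0.1. The deposited values are whole-number counts with no normalization, 1 table per library. The study describes a batch correction after counting, and the batch is not named. Strand and multimapping settings are not given in the sources used here.

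Gene names, positions and sequences were those of GENCODE release 39 for the mouse (GRCm39), covering 56017 of 56748 IDs. Genes were filtered with filterByExpr (about 10 counts in 4 libraries), scaled by TMM and tested with the quasi-likelihood test of edgeR 4.0.16 (R 4.3.3) with the replicate number as a block, adjusting by Benjamini-Hochberg over all genes. The threshold was an adjusted p of 0.05 or less. CPM used TMM library sizes, log2 CPM a prior count of 2, and TPM the union of exons. Fits without the block or without 1 pair, DESeq2 1.42.0 and limma 3.58.1 were alternatives, and the test was checked on simulated data. Intervals and floors cover the spread of these samples or counting error only, since reads carry no molecular identifiers.

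The series text names 4 mice, from which it was inferred that libraries with the same number share a mouse. After the group means were removed, libraries with the same number correlated at 0.825, 0.489, 0.879 and 0.765 over 11985 genes, with 0.183 the highest for different numbers. Libraries of a group differed by at least 52.6 chi-square units per degree of freedom, so each counted as 1 replicate.

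The members and lists were chosen with earlier results of these data known. Named genes are the 9 members, list genes with an adjusted p of 0.05 or less, up to 4 further genes of each cytokine list by mean CPM, the 3 genes most alike to each member, and the nearest protein-coding neighbours; a few that the rule takes are not reported here. Marker lists are given as summed levels, with some single markers named after their values had been seen.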

Additional observations from a re-analysis of the deposited data

Results flagged for a closer look

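One of 18 groups of 4 libraries had a library far from the other 3 by Dixon's criterion, which chance meets in about 1 of 20 groups. Il4 stood at 9.89 CPM in Mettl3-RNP library 4, where the other Mettl3-RNP libraries had 18.9 to 19.1 CPM. Its Pulsed partner was also the lowest of its group, at 10.7 CPM.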

How the results depend on the processing

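The 9 members kept their direction and stayed uncalled in most of the 12 alternatives. Il6 changed sign without replicate 2 (-0.05) and without replicate 3 (-0.10), and ranged from -0.10 to 0.14 over the fits without a replicate. The number of members called higher was 2 (Il13 and Il16) and called lower 1 (Il1b) with no filter beyond 1 count, and 1 was called lower (Lif) by DESeq2 and by limma on values with the replicate number removed, a setting that does not charge the block to the degrees of freedom. Genes called over all genes, 559 with the replicate block, were 0 with no replicate block, 26 to 383 without a replicate, 993 with no filter, 959 with at least 10 counts in every library, 1449 by DESeq2 and 4564 after the replicate number was removed. Genes of the other lists, 6 with the block, were 0 with no block, 1 to 5 without a replicate, and 15, 10, 18 and 35 in the last 4 of these settings. The cause was not tested. Among called genes over all genes tested, 62.8% were higher, 71.4% with library size alone, 42.3% without replicate 2 and 49.7% after the replicate number was removed. By the longest transcript 4 of 9 members kept their place. Prior counts of 2 and 0.5 gave the same sign-flip p for every member. With 4 pairs the interval of Il1b covers 0.159-fold to 1.25-fold, and no value within it can be set aside.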

Other observations

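Lif and Osm are neighbours with opposite fitted directions, so their ratio within a library, which no scaling between libraries can move, was taken after their values had been seen and is given without a test. Mettl3-RNP libraries 1 to 4 held 1.304, 1.441, 0.832 and 1.94 Lif counts per Osm count, and Pulsed libraries 1 to 4 held 1.68, 1.53, 1.43 and 2.86. The ratio was lower in Mettl3-RNP cells in 4 of 4 pairs, by 0.45 ± 0.295 on the log2 scale (mean and SD of 4 pairs), with a range from 0.09 in pair 2 to 0.78 in pair 3. The Il13 counts per Il4 count were higher in 3 of 4 pairs, with a log2 difference of 1.51 in pair 2 and between -0.17 and 0.11 in the others.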
